A study of Mus musculus with 45 samples.

Results

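The 7 genes described here encode secreted chemokines, the small proteins that direct the migration of leukocytes. Ccl3, Ccl4, Ccl6 and Ccl9 are CC chemokines of the macrophage inflammatory protein type, and Cxcl1, Cxcl2 and Cxcl5 are the CXC chemokines that attract neutrophils. They were taken by name from 3 tables of gene counts, and all 7 were listed in each of these tables, among 55450 genes of the slice table, 47643 of the adult microglia table and 43411 of the brain tissue table. Ccl3, Ccl6 and Ccl9 act through Ccr1, a receptor of myeloid cells. Cxcl1, Cxcl2 and Cxcl5 bind Cxcr2, which neutrophils carry. Macrophages and microglia, the resident macrophages of the brain, are known sources of the CC group, and transcription factors of the NF-kB family, which TNF and LPS both activate, are known to drive several of these genes.

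All samples came from C57BL/6 mice. Slice microglia were sorted from coronal brain slices of newborn pups kept on a membrane for 2 weeks and then for 24 h in medium (9 samples), in tumor necrosis factor (TNF) at 50 ng/mL (11 samples) or in granulocyte-macrophage colony-stimulating factor (GM-CSF) at 20 ng/mL (9 samples). The labels give 3 pooled slices per sample. Adult microglia came from mice of 10 to 15 weeks, 24 h after an intraperitoneal injection of lipopolysaccharide (LPS, a bacterial cell wall component) at 1 mg/kg (4 samples) or of phosphate-buffered saline (PBS, 4 samples). Whole brain tissue of 10 to 15 week old mice came from animals given LPS, with that dose and time (4 samples), and from untreated animals (4 samples), so these controls had no injection. Both kinds of microglia were sorted as live cells with high CD11b and intermediate CD45, a gate meant to leave out cells with high CD45 such as blood leukocytes. The authors state that the slice microglia data were pooled over 4 independent experiments, but no label assigns a sample to one. The main fits held no term for experiment. Nothing ties a sample to a single culture or animal beyond its label, so p-values measure the spread between these samples.

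The 29 slice libraries held 5973364 to 9165485 counts each, the adult microglia libraries 11391577 to 14216034 and the brain tissue libraries 8199881 to 10368603. Levels are given as CPM, the count relative to the TMM-scaled library total, within each table. Levels of different tables are set side by side only as descriptions, because each table had its own sequencing and scaling. Brain tissue also had another library kit than the microglia. The 8 microglia markers summed to 16730 to 23920 CPM in medium slices and to 52780 to 59160 CPM in PBS microglia, whereas the 4 neuron markers summed to at most 7.41 CPM in any microglia library. In slices the microglia markers summed to 9246 to 12250 CPM with TNF and to 11890 to 13550 CPM with GM-CSF, below every medium library. In medium slices the 7 monocyte and border macrophage markers summed to 384 to 1053 CPM. They summed to 431 to 1208 CPM with TNF, 297 to 900 with GM-CSF and 15.95 to 21.9 in PBS microglia. Within this list Lyve1 and Mrc1 were lower with TNF (log2 fold changes -3.15 and -1.70, edgeR adjusted p 0.00519 and 8.75e-07). Ms4a7 was lower with GM-CSF (-1.79, edgeR adjusted p 0.000139). The other tested markers of the list did not pass the limits used below. The 4 oligodendrocyte markers summed to 67.0 to 146 CPM in medium slices, 51.3 to 160 with TNF and 55.8 to 118 with GM-CSF. The part of the shift in microglia markers, and of these other cells, in the results that follow was not tested.

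The 4 CC genes lie together on mouse chromosome 11 of GRCm38 and the 3 CXC genes on chromosome 5. On the minus strand, Ccl9 spans chr11:83572919-83578636, Ccl6 chr11:83587882-83593087 and Ccl3 chr11:83647844-83649355, and on the plus strand Ccl4 spans chr11:83662584-83664683. Cxcl5 spans chr5:90759360-90761624, Cxcl1 chr5:90891241-90893115 and Cxcl2 chr5:90903871-90905938, all on the plus strand. All 7 are protein coding. Ccl6 lies within the span of E230016K23Rik, a noncoding gene of the opposite strand, but their exons share 0 bases. Of the 50-base stretches of Cxcl2 transcripts, 5.84% also occur in Cxcl3, so reads of this pair are not wholly separable. For Ccl9 1.97% of such stretches occur in 463 other genes, and for Cxcl5 0.693% in 9. With stretches of 75 bases Ccl9 shared 0%.

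The promoters of members that rose together are shown here as the 250 bases before the RefSeq start site, 5′ to 3′ on the gene's strand, because Ccl9, Cxcl2 and the rarer Cxcl1 were higher with TNF while Ccl6 and Ccl9 shared their direction with GM-CSF and with LPS. RefSeq promoters matched 5 of the 7 members. The windows are chr11:83593088-83593337 for Ccl6, chr11:83578637-83578886 for Ccl9, chr5:90890995-90891244 for Cxcl1 and chr5:90903649-90903898 for Cxcl2 (GRCm38.p6). Capitals mark matches, on either strand, to an NF-kB-like motif (GGG, any pair of bases, then TTTCC), an AP-1-like motif (TGANTCA), a STAT-like motif (TTCNNNGAA) and a TATA motif (TATAAA).
Ccl6: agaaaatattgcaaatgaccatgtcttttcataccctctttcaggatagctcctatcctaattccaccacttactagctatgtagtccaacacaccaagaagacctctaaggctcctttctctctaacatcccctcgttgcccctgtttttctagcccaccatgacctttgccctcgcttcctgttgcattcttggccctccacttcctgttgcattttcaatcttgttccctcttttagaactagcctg
Ccl9: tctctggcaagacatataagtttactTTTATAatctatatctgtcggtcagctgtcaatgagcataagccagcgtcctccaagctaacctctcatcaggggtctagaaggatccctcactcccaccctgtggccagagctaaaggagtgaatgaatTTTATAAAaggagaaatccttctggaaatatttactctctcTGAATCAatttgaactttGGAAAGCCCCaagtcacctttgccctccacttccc
Cxcl1: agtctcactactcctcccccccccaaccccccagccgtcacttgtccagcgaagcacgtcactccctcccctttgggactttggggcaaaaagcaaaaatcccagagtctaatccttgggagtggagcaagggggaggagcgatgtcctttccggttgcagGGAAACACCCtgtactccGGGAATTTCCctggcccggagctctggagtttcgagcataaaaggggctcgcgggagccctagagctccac
Cxcl2: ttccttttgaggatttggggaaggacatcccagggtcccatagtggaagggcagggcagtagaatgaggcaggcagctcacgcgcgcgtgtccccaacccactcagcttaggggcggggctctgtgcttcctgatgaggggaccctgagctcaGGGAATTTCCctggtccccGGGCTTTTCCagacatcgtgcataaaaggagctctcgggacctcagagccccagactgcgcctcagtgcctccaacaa

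Cxcl1 and Cxcl2 each held 2 matches to the NF-kB-like motif, at -89 to -80 and -71 to -62 bases from the start in Cxcl1 and at -97 to -88 and -78 to -69 in Cxcl2. Ccl9 held 1 such match, at -35 to -26, beside an AP-1-like match at -53 to -47 and 3 TATA matches, of which those at -94 to -89 and -92 to -87 overlap. Ccl6 held 0 matches to any of the 4 motifs, as did Ccl3 (sequence not shown). Over all 32851 RefSeq promoter windows of 300 bases, 1.63% held the NF-kB-like motif, 7.81% the AP-1-like, 8.30% the STAT-like and 13.6% the TATA motif. These matches describe letters only, and a window without one says nothing of the factor.

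The CC group was abundant in microglia and the CXC group was scarce. In medium slices, mean levels were 305 ± 65.8 CPM for Ccl3, 253 ± 46.2 for Ccl4, 658 ± 175 for Ccl6 and 157 ± 35.1 for Ccl9 (SD, n = 9). Cxcl2 averaged 4.39 ± 2.80 CPM there and Cxcl1 0.248 ± 0.414, with 0 counts in 6 of 9 libraries, while Cxcl5 had 0 counts in all 9.

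Compared per kilobase of exon, Ccl3 (398 CPM per kb), Ccl4 (383) and Ccl6 (367) overlapped in medium slices, and Ccl9 was lower (51.5 CPM per kb) without overlap. Among PBS microglia the order was different, with Ccl6 at 94.97 CPM per kb, Ccl9 at 53.1, Ccl4 at 27.5 and Ccl3 at 18.9, of which only Ccl4 and Ccl3 overlapped. Ccl6 made up 30.5% of the 7 genes' summed level per kb in medium slices, 64.0% with GM-CSF, 48.8% in PBS microglia and 23.1% in LPS microglia.

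**Figure D1:**
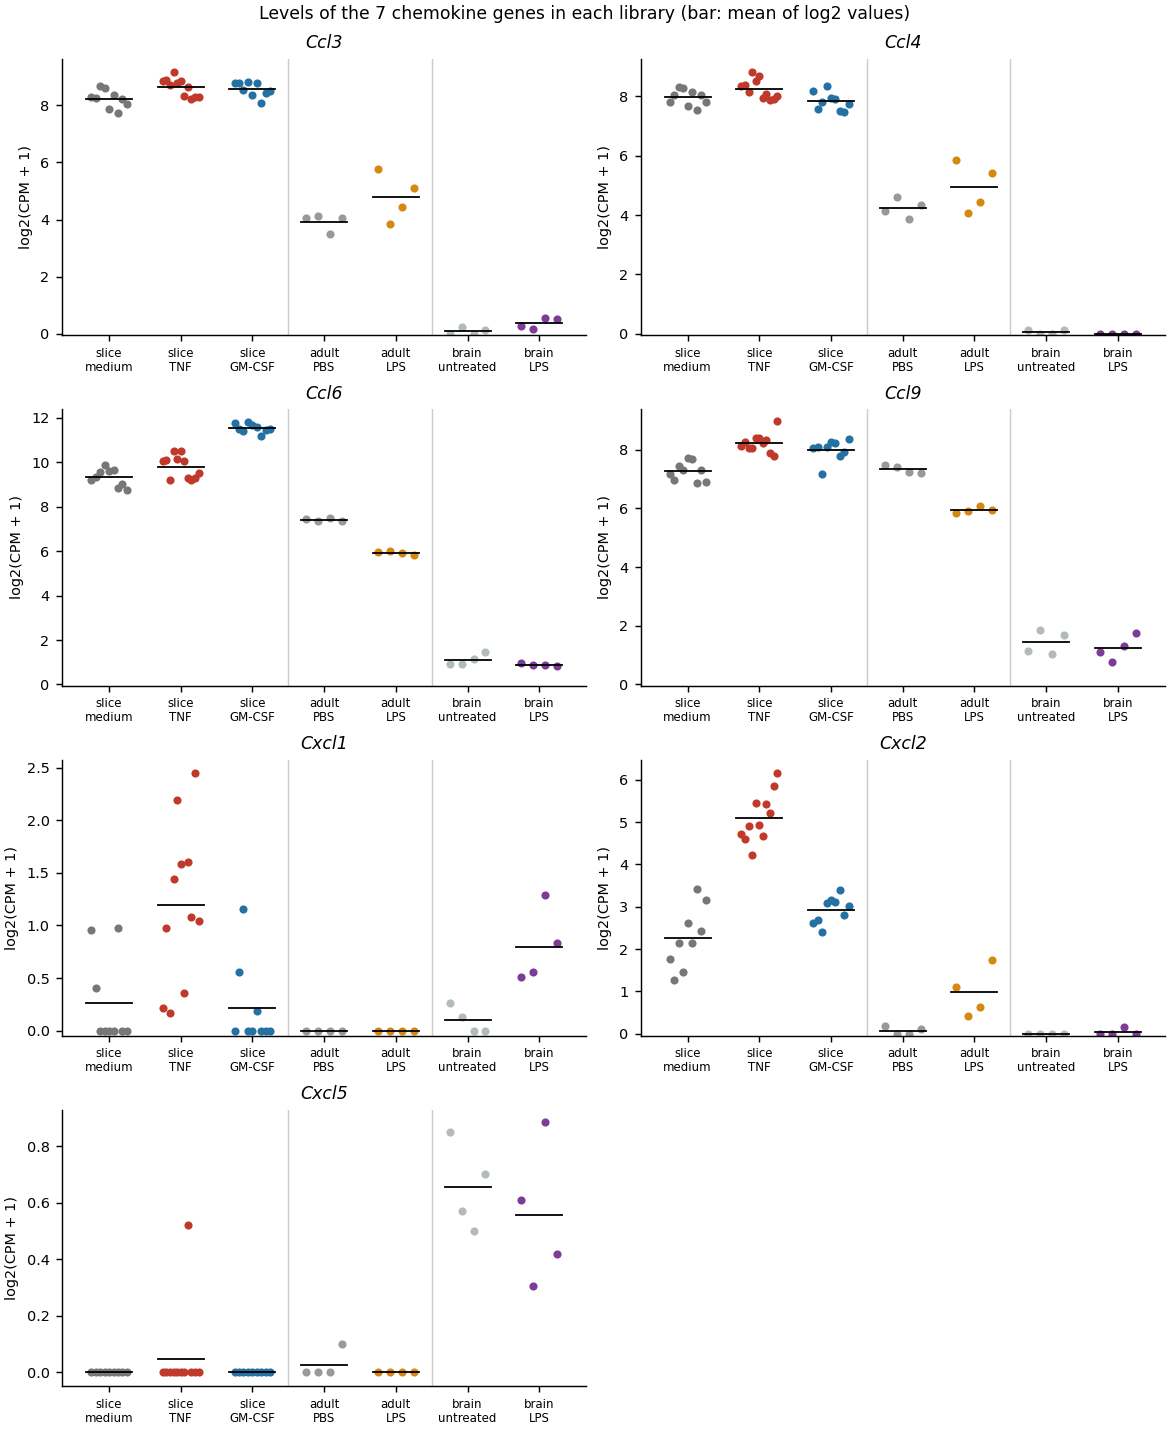
Level of each of the 7 chemokine genes in every library, as log2(CPM + 1) on the vertical axis, for the 7 groups on the horizontal axis, with 1 point per library and a bar at the mean of the log2 values. Grey lines part the 3 tables, which were scaled separately. Ccl6 rose without overlap with GM-CSF, Cxcl2 rose without overlap with TNF, and Ccl6 and Ccl9 were lower without overlap in LPS than in PBS microglia.

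Across the 7 groups, Ccl3 was highest in TNF slices (405 ± 87.6 CPM, n = 11), whose range overlapped that of GM-CSF slices (381 ± 63.8), and it was lowest in untreated brain tissue (0.0747 ± 0.0938). Ccl4 was likewise highest in TNF slices (310 ± 72.9 CPM), and the 3 slice groups overlapped each other in both genes. Every slice library lay above every adult microglia library for Ccl3, Ccl4 and Ccl6. This did not hold for Ccl9, since PBS microglia (162 ± 15.4 CPM, n = 4) fell within the range of medium slices. In brain tissue the 7 genes together summed to 2.36 to 5.20 CPM, against 344 to 386 CPM in PBS microglia.

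**Figure D2:**
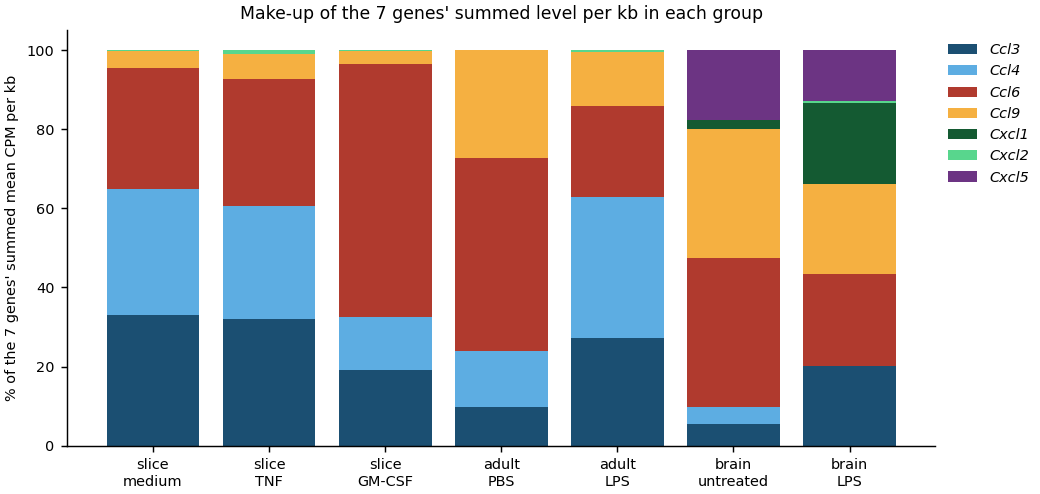
Stacked bars of the share, in percent, that each of the 7 genes takes of their summed mean CPM per kb of exon, for the 7 groups on the horizontal axis. Ccl6 takes 64.0% with GM-CSF and 23.1% in LPS microglia, and Ccl4 takes 35.6% in LPS microglia.

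TNF raised Cxcl2 and Ccl9 in slice microglia. Of the 7 genes 5 had enough counts to be tested, and 2 of them were called, that is, passed an edgeR adjusted p of 0.05 with a fold change over 1.5. Over all 11313 genes tested, 20.8% were called in either direction, so 2 of 5 genes is too small a number to read against it. The members tested had a median log2 fold change of 0.53, against -0.031 for all genes.

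Cxcl2, which encodes MIP-2, a chief neutrophil attractant of macrophages, ranged from 1.41 to 9.70 CPM with a median of 3.45 in medium and from 17.6 to 70.8 with a median of 29.5 in TNF. The 11 TNF libraries all lay above the 9 medium libraries. The log2 fold change was 3.04 (SE 0.292, 8.24-fold, edgeR adjusted p 1.01e-10).

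Ccl9, also called MIP-1 gamma, ranged from 117 to 211 CPM with a median of 157 in medium and from 219 to 503 with a median of 304 in TNF. Here too the 11 TNF libraries lay above all medium libraries. It rose by a log2 fold change of 0.98 (1.97-fold, SE 0.136, adjusted p 3.29e-07 by edgeR).

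Ccl3, the gene of MIP-1 alpha, ranged from 211 to 410 CPM with a median of 302 in medium and from 294 to 570 with a median of 415 in TNF. The groups overlapped, with 6 of 11 TNF libraries above every medium library. Its log2 fold change of 0.41 (adjusted p 0.00657 by edgeR, SE 0.122) was below the fold limit at 1.33-fold. Ccl4, the gene of MIP-1 beta, ranged from 187 to 317 CPM with a median of 261 in medium and from 232 to 451 with a median of 284 in TNF, with a log2 fold change of 0.29 (adjusted p 0.0594 by edgeR, SE 0.124).

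Ccl6, a CC chemokine of myeloid cells, ranged from 434 to 939 CPM with a median of 638 in medium and from 583 to 1469 with a median of 1055 in TNF. These groups overlapped as well, with 6 of 11 TNF libraries above every medium library. Its log2 fold change of 0.53 (1.44-fold, SE 0.173, adjusted p 0.015 by edgeR) also fell short of the fold limit. Among libraries whose titles carry the codes 1A or 1B it was 0.65 (edgeR adjusted p 0.0198) and was called, and among those of codes 2A and 2B it was 0.27 (edgeR adjusted p 0.322). Medium had 3 libraries of code 1A and 1 of 1B, while TNF had 3 of each. Mean Ccl6 was 661 CPM in medium and 923 with TNF in 1A, and 939 and 1355 in 1B. The groups thus differ in their mix of codes, whose part in the 0.65 was not tested. The sources used here do not say what these codes mean.

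Cxcl1, which encodes the neutrophil attractant KC, had too few counts for the fit across genes. In medium 6 of 9 libraries had 0 counts and the highest had 0.970 CPM, whereas all 11 TNF libraries held counts, from 0.123 to 4.48 CPM with a median of 1.11. The groups overlapped, with 7 of 11 TNF libraries above every medium library. Summed counts were 117 with TNF and 17 in medium, a ratio per library total of 5.79 (exact conditional 95% interval 3.47 to 10.3, counting error only). A two-sided exact permutation test of the mean CPM, added after the low counts were seen, gave p = 0.0062 and 0.0403 after adjustment over 13 such tests. Without the filter on low counts edgeR called it higher too (log2 2.58, adjusted p 0.0462). Within code 1A the mean was 0.415 CPM with TNF and 0.421 in medium, whereas TNF was higher in codes 1B (2.43 and 0 CPM), 2A (1.16 and 0) and 2B (2.22 and 0.323), a difference not tested within codes. Cxcl5, the gene of LIX, had 0 counts in all slice libraries except 3 counts in 1 TNF library, where 3 counts in a library correspond to 0.327 to 0.502 CPM of its total.

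Summed neutrophil markers reached 0.834 to 15.8 CPM in medium and 3.57 to 125 CPM in TNF slices, where S100a8 and Mmp8 were called higher (log2 fold changes 2.18 and 2.43, edgeR adjusted p 0.00944 and 0.0225). Ly6g, which defines neutrophils in the mouse, had 0 counts in all slice libraries. Without the TNF library of 125 CPM, left out once its values were known, Cxcl2 and Ccl9 were still called, at log2 fold changes of 3.07 and 0.96.

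**Figure D3:**
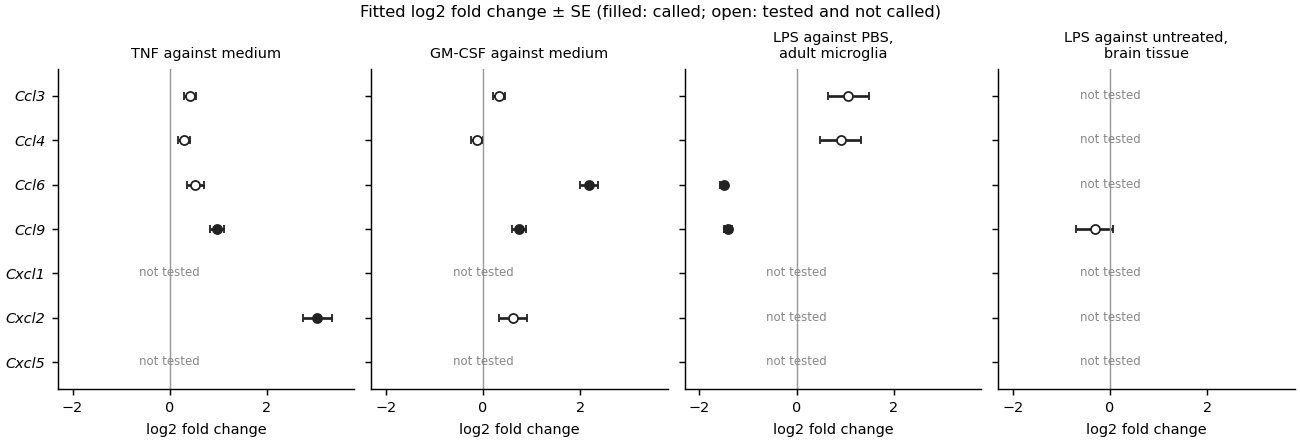
Fitted log2 fold change of each member on the horizontal axis, with bars of ± 1 SE, in TNF and GM-CSF slices against medium, LPS against PBS microglia, and LPS against untreated brain tissue. Filled points were called and open points were tested and not called. Ccl9 rose with both cytokines (0.98 and 0.74) and was lower after LPS in adult microglia (-1.41), as was Ccl6 (-1.50).

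GM-CSF raised Ccl6 most among the members. Again 5 of 7 members were tested and 2 were called, both higher. Over all genes, 10.8% were called in either direction and 4.84% higher, and 2 of 5 genes is too small a number to read against these shares. Both cytokine comparisons use the same medium libraries.

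Ccl6 ranged from 434 to 939 CPM with a median of 638 in medium and from 2302 to 3637 with a median of 2922 in GM-CSF, the highest level of any member in any group. All 9 GM-CSF libraries lay above all medium libraries. The log2 fold change was 2.19 (SE 0.188, 4.55-fold, edgeR adjusted p 2.34e-10). It was 2.13 among libraries of codes 1A and 1B and 2.26 among those of 2A and 2B.

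Ccl9 rose from a range of 117 to 211 CPM in medium to one of 144 to 328 with a median of 272 in GM-CSF. Of the 9 GM-CSF libraries 8 lay above every medium library, and the remaining one, of code 1B, lay within the medium range. The log2 fold change was 0.74 (SE 0.141, 1.67-fold, edgeR adjusted p 0.000118).

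Cxcl2 ranged from 4.30 to 9.46 CPM with a median of 7.13 in GM-CSF, wholly within the medium range of 1.41 to 9.70. Its log2 fold change of 0.62 (adjusted p 0.13 by edgeR, SE 0.295) was not called. With the title code as a covariate it was 0.72 and called (edgeR adjusted p 0.0171), among codes 1A and 1B it was 1.29 (0.00806) and among codes 2A and 2B 0.34 (0.583).

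Ccl3 ranged from 267 to 446 CPM with a median of 366 in GM-CSF, with a log2 fold change of 0.32 (adjusted p 0.0577 by edgeR, SE 0.127), and Ccl4 from 179 to 327 CPM with a median of 227, with one of -0.13 (SE 0.13, edgeR adjusted p 0.538). Neither was called, and both groups overlapped. Cxcl1 had 15 counts in the 9 GM-CSF libraries against 17 in medium, a ratio of 0.921 (95% interval 0.429 to 1.96), and Cxcl5 had 0.

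Set directly against each other, the cytokines differed in Ccl6 and Cxcl2. TNF libraries were lower than GM-CSF libraries in Ccl6 by a log2 fold change of -1.66 (adjusted p 3.64e-09 by edgeR, SE 0.173) and higher in Cxcl2 by 2.43 (SE 0.28, edgeR adjusted p 8.53e-09), in both genes without overlap. These were 2 of 5 members tested, against 16.2% of all genes. Ccl9, called in both cytokine comparisons with medium, differed by 0.24 (SE 0.134, edgeR adjusted p 0.191), an estimate whose size is under 2 SE. Ccl4 differed by 0.42 (1.34-fold, edgeR adjusted p 0.009), below the fold limit, and Ccl3 by 0.09 (SE 0.121, edgeR adjusted p 0.638), a difference that changed sign with total counts in place of TMM scaling. With total counts the median of all genes moved from -0.023 to -0.194 in this comparison. Cxcl1 summed to 117 counts with TNF and 15 with GM-CSF (ratio 6.28, interval 3.66 to 11.6, exact permutation p = 0.00522, 0.0403 adjusted over 13 tests), and edgeR without the filter called it higher with TNF (log2 2.80, adjusted p 0.0397).

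**Figure D4:**
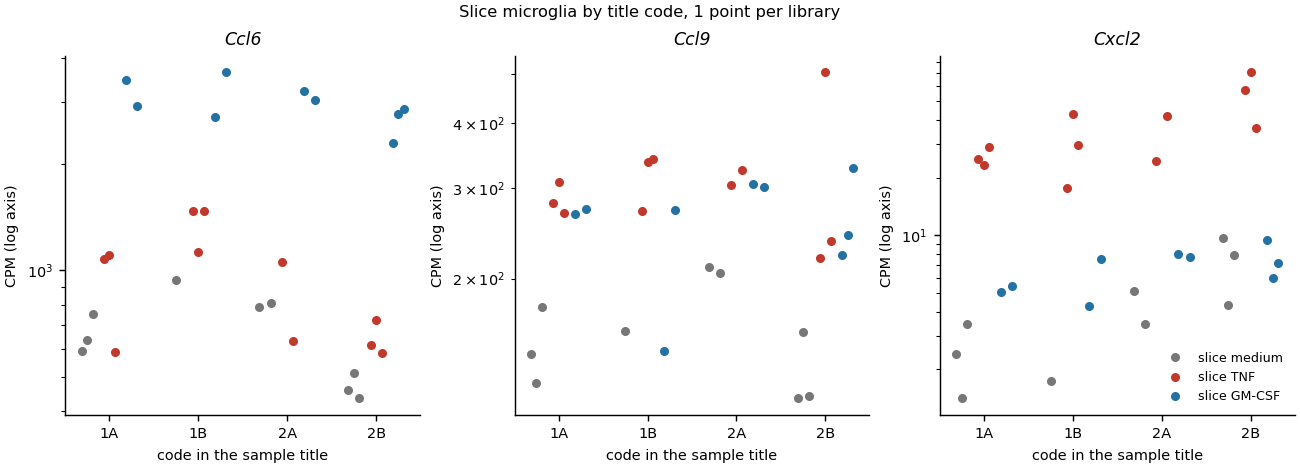
CPM on a log axis of Ccl6, Ccl9 and Cxcl2 in slice microglia, by the code in the sample title on the horizontal axis and coloured by treatment, with 1 point per library. GM-CSF libraries are above medium libraries in Ccl6 within all 4 codes, as TNF libraries are in Cxcl2, and code 2B has the lowest mean Ccl6 in each treatment (468, 641 and 2651 CPM in medium, TNF and GM-CSF).

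The levels also varied between title codes within a treatment. Ccl6 was lowest in code 2B in all 3 treatments, at means of 468 CPM in medium, 641 with TNF and 2651 with GM-CSF. Cxcl2 went the other way in medium and TNF, with its highest code means in 2B (7.33 and 54.7 CPM) and its lowest in 1B (1.74, 1 library) and in 1A (25.7). Within each code the TNF libraries still exceeded the medium libraries in Cxcl2.

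Neighbouring genes varied together within some treatments. Over the 9 medium libraries, log2(CPM + 1) of Ccl3 and Ccl4 correlated at a Pearson r of 0.953 (exact permutation p = 0.00019, 0.00124 adjusted over 13 relations) and a Spearman rho of 0.883 (0.00308, adjusted 0.02). Over the 11 TNF libraries r was 0.92 (permutation p = 4e-05, adjusted 0.00052) and rho 0.927 (0.00012, adjusted 0.00156). Without the 2 libraries farthest from the median of Ccl3, r was 0.903 and 0.857, and with the code means subtracted it was 0.953 and 0.865. In GM-CSF libraries r was 0.567 (exact permutation p = 0.111, adjusted 0.361) and rho 0.5 (0.178, adjusted 0.36). The difference between treatments was not tested.

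Ccl6 and Ccl9 had an r of 0.75 in medium (exact permutation p = 0.024, adjusted 0.104), 0.2 with TNF (permutation p = 0.58, adjusted 0.754) and 0.442 with GM-CSF (exact permutation p = 0.238, adjusted 0.515), with rho of 0.8, 0.545 and 0.483 (adjusted permutation p of 0.0599, 0.256 and 0.36). Without the 2 libraries farthest from the median of Ccl6, r was 0.817, -0.0419 and 0.488. Cxcl1 and Cxcl2 could be compared only with TNF, where r was 0.461 (permutation p = 0.152, adjusted 0.396) and rho 0.527 (adjusted 0.256), and r was 0.179 without the 2 farthest libraries. The relation of Ccl6 to Ccl9 in TNF thus changed sign when those libraries were left out. With the code means subtracted, r of Ccl6 and Ccl9 was 0.811 in medium, 0.213 with TNF and 0.817 with GM-CSF (adjusted permutation p of 0.0354, 0.699 and 0.0231), while rho was 0.767, 0.309 and 0.633 (0.0927, 0.515 and 0.198). Cxcl1 and Cxcl2 then had an r of 0.449. The p-values with code means subtracted come from permuting the centred values over all codes, not within them. They can be too small, so no relation is read from them.

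Immediate early genes, which dissociation of tissue is known to induce, were set beside Ccl3 and Ccl4 because these chemokines respond to handling too. The mean of 11 such genes correlated with Ccl3 at r = 0.235, 0.304 and -0.162 in medium, TNF and GM-CSF, and with Ccl4 at 0.304, 0.0605 and -0.103. Adjusted permutation p-values ran from 0.667 to 0.858. Spearman rho ran from -0.383 to 0.3 over these 6 relations, with adjusted permutation p from 0.508 to 0.947. In GM-CSF, leaving out the 2 libraries farthest from the median of the early genes gave r of -0.746 for Ccl3 and -0.88 for Ccl4, and subtracting the code means from all 9 gave -0.602 and -0.12.

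**Figure D5:**
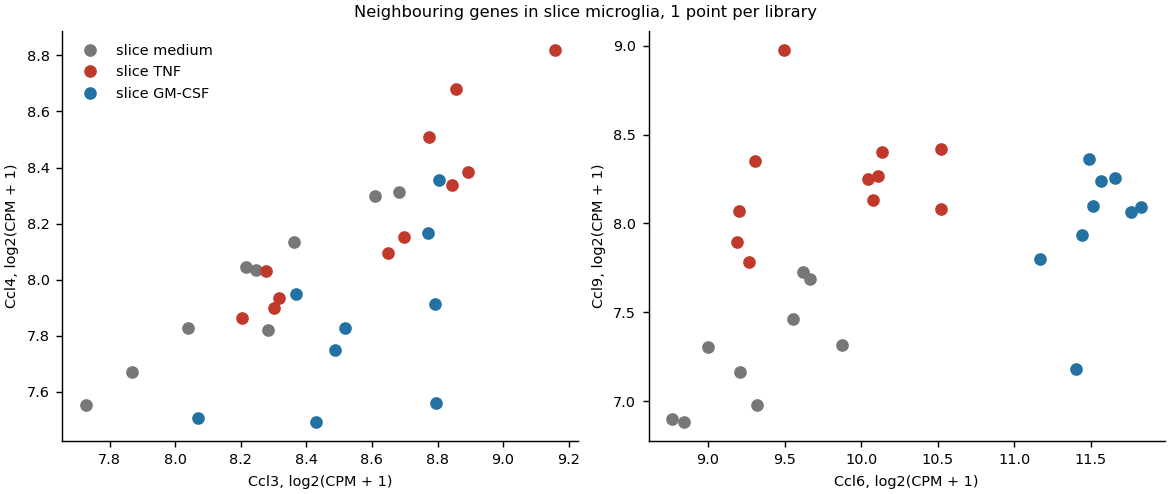
Ccl4 against Ccl3 (left) and Ccl9 against Ccl6 (right) in slice microglia, all as log2(CPM + 1), with 1 point per library coloured by treatment. Ccl3 and Ccl4 lie along a line in medium (r = 0.953) and TNF (r = 0.92), and GM-CSF libraries stand apart in Ccl6.

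In adult microglia LPS lowered Ccl6 and Ccl9. Of the 7 members 4 were tested and 2 were called, both lower. Over all 12987 genes, 27.4% were called in either direction and 13% lower, and 2 of 4 genes is too small a number to read against these shares.

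Ccl6 was 174.5, 164, 181 and 162.5 CPM in the 4 PBS libraries and 61.6, 63.6, 60.2 and 55.8 CPM in the 4 LPS libraries. The LPS libraries were lower in every case and close to each other. The log2 fold change was -1.50 (SE 0.0684, 2.83-fold lower, edgeR adjusted p 5.4e-08).

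Ccl9 was 179, 169, 152 and 146 CPM with PBS and 56.4, 59.6, 67.5 and 60.5 CPM with LPS, again without overlap. The log2 fold change was -1.41 (SE 0.0848, 2.65-fold lower, edgeR adjusted p 2.81e-07). Both genes were called in every fit with 1 library left out.

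Ccl3 was 15.5, 16.2, 10.3 and 15.7 CPM with PBS and 53.9, 13.4, 20.7 and 33.1 CPM with LPS. LPS replicates 1 and 4 were high, and replicate 2 lay within the PBS range. Its log2 fold change of 1.07 (adjusted p 0.0665 by edgeR, SE 0.418) was not called, but it was called without LPS replicate 2 (1.31, edgeR adjusted p 0.0119) and by DESeq2 (1.06, adjusted p 0.0343), and it was 0.62 (edgeR adjusted p 0.103) without LPS replicate 1.

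Ccl4 was 16.6, 23.3, 13.5 and 19.3 CPM with PBS and 57.6, 15.7, 20.9 and 42.2 CPM with LPS. The same libraries were high as for Ccl3, and 2 of 4 LPS libraries lay within the PBS range. Its log2 fold change of 0.91 (adjusted p 0.113 by edgeR, SE 0.424) was not called, and it was 1.15 (0.033) without LPS replicate 2 and 0.52 (0.255) without replicate 1.

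Cxcl2 had 2, 0, 0 and 1 counts with PBS and 16, 4, 7 and 32 counts with LPS, too few for the fit across genes. Every LPS library was above every PBS library. The ratio of summed counts (59 against 3) per library total was 20.4 (95% interval 6.64 to 102). A two-sided exact permutation test gave p = 0.0286, the smallest that 4 against 4 samples allow, and 0.0929 after adjustment over 13 tests. Without the filter on low counts edgeR called it higher (log2 4.09, SE 0.753, adjusted p 2.44e-06). Cxcl1 had 0 counts in all 8 libraries and Cxcl5 1 count in 1 PBS library, where 3 counts in a library would be 0.211 to 0.263 CPM.

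Markers of other cells moved in the same libraries. The 8 neutrophil markers summed to 40.6 to 83.7 CPM with PBS and to 1.61 to 8.46 CPM with LPS, and 5 of 5 tested were called lower, among them Camp (log2 -5.31, edgeR adjusted p 9.56e-05), Ltf and Ngp. Ly6g and Retnlg had 0 counts in the LPS libraries. The 8 microglia markers summed to 38170 to 42870 CPM with LPS, below every PBS library, and 5 endothelial markers to 28.9 to 36.3 CPM with PBS and 10.2 to 13.7 CPM with LPS. Monocyte and border macrophage markers summed to 15.95 to 21.9 CPM with PBS and 28.2 to 39.5 CPM with LPS. Of the 3 tested, F13a1 (log2 4.30) and Mrc1 (0.64) were called higher and Ccr2 (-0.81) lower, at edgeR adjusted p of at most 0.0184. Of the 8 microglia markers 2 were called lower, 1 was called higher and 5 were not called, so these lists did not move as a whole. The part of these cells in the change of Ccl6 and Ccl9 was not tested.

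In brain tissue the members were near the limit of detection. Only Ccl9 had enough counts to be tested, and it was not called, where 3.18% of all 15083 genes were called. The 8 microglia markers summed to 287 to 325 CPM in untreated tissue and to 252.5 to 421 CPM after LPS, and 7 neutrophil markers to 0.503 to 1.55 and 3.17 to 8.09 CPM, whose part in these values was not tested. In such bulk tissue fewer cells of a type and less RNA per cell cannot be told apart.

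Ccl9 was 1.21, 2.62, 1.03 and 2.19 CPM in untreated tissue and 1.16, 0.707, 1.45 and 2.36 CPM after LPS. The groups overlapped, and the log2 fold change was -0.31 (SE 0.378, edgeR adjusted p 0.682). Ccl6 had 9, 9, 12 and 17 counts in untreated tissue and 9, 7, 7 and 7 counts after LPS, a ratio per library total of 0.726 (95% interval 0.443 to 1.17, exact permutation p = 0.114, adjusted 0.248).

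Cxcl1 had 2, 1, 0 and 0 counts in untreated tissue and 4, 4, 12 and 7 counts after LPS. All 4 LPS libraries were above all untreated ones. The ratio of summed counts (27 against 3) per library total was 10.2 (95% interval 3.15 to 52.7), with an exact permutation p of 0.0286, the smallest possible here, and 0.0929 after adjustment. Without the filter on low counts edgeR called it (log2 3.13, SE 0.783, adjusted p 0.00426).

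Ccl3 had 0, 2, 0 and 1 counts in untreated tissue and 2, 1, 4 and 4 counts after LPS, a ratio of 4.17 (95% interval 1.10 to 23.3, exact permutation p = 0.0571, adjusted 0.149). Ccl4 had 1, 0, 0 and 1 counts in untreated tissue and 0 in all LPS libraries, and Cxcl2 had 1 count in 1 LPS library and 0 in all the others. A change in either was not detectable at this depth.

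Cxcl5 was the only member whose highest level was in brain tissue, at 0.583 ± 0.172 CPM in untreated tissue (8, 5, 4 and 6 counts) and 0.487 ± 0.269 CPM after LPS (5, 2, 7 and 3 counts). The groups overlapped, with a ratio of 0.84 (95% interval 0.421 to 1.64, exact permutation p = 0.571, adjusted 0.929).

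The LPS effects in adult microglia and brain tissue were set against each other as an interaction over both tables. The difference of log2 fold changes was -1.03 for Ccl6 (SE 0.28, edgeR adjusted p 0.0143) and -1.10 for Ccl9 (SE 0.362, edgeR adjusted p 0.0261), 2 of 4 members tested, where 19.7% of all genes were called. Ccl3, Ccl4 and Ccl6 were below the filter in brain tissue and entered this fit only through their counts in adult microglia, so nothing is read from that count. Without the filter the difference was -1.004 for Ccl6 (edgeR adjusted p 0.0304) and -1.071 for Ccl9 (0.0357). For Ccl3 it was -0.84 (SE 1.65, edgeR adjusted p 0.8) and for Ccl4 3.36 (SE 4.35, edgeR adjusted p 0.649), neither of them called. These rest on few brain counts. Ccl6 lost its call without LPS brain replicate 1 (edgeR adjusted p 0.0547), and Ccl9 lost it without LPS brain replicate 3 (0.0543) or 4 (-0.74, 0.175), or untreated replicate 1 (0.0625) or 3 (0.0595), and under limma-voom (0.0796). Tissue, library kit, sequencing run and the kind of control coincide in this comparison and cannot be told apart.

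In the list of receptors, Ccr1 was called higher with GM-CSF, and the gene called lower was Ccrl2, whose ligand is not one of these chemokines. Ccr1, the receptor of Ccl3, Ccl6 and Ccl9, ranged from 242 to 444 CPM with a median of 300 in medium and from 609 to 908 with a median of 714 in GM-CSF, without overlap (log2 1.24, SE 0.119, edgeR adjusted p 4.72e-10), and in TNF its log2 fold change was 0.11 (edgeR adjusted p 0.466). Ccrl2, an atypical receptor that binds chemerin, rose by 1.69 with TNF (edgeR adjusted p 1.02e-12) and fell by 0.99 with GM-CSF (1.37e-06). Cxcr1 had 0 counts in slices, and Cxcr2, the neutrophil receptor, averaged 0.257 CPM in medium, 0.253 with TNF and 0.437 with GM-CSF. The TNF mean rests on replicate 6 alone, the library left out above, with 18 counts (2.78 CPM). All other TNF libraries had 0 counts, while medium libraries had 0 to 11 and GM-CSF libraries 0 to 9. Ccr3, Ackr1 and Ackr2 averaged at most 1.26 CPM in any slice group.

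In adult microglia Ccr1 rose with LPS from 16.5 to 22.9 CPM over the PBS libraries to 49.4 to 61.7 CPM (log2 1.57, SE 0.111, edgeR adjusted p 8.91e-07), and Ccr3, a receptor of eosinophils, was lower (log2 -2.38, edgeR adjusted p 0.000622, 21 to 33 counts with PBS and 1 to 8 with LPS). Ccrl2 had a log2 fold change of -0.06 (edgeR adjusted p 0.872). In brain tissue Ackr1, a chemokine sink of venules and red cells, was at 32.2 ± 1.15 CPM in untreated tissue and 44.5 ± 5.06 after LPS (log2 0.47, edgeR adjusted p 0.00102), below the fold limit, and Ackr2 and Cxcr2 were not called.

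Other ligands of the same receptors were also called. Of 4 such genes 3 were tested in slices, and with TNF all 3 rose, namely Ccl7 (log2 6.73), Cxcl3 (5.50) and Ccl5 (4.90). With GM-CSF Ccl7 (5.21) and Cxcl3 (4.66) rose, and Ccl5 had -1.14 (edgeR adjusted p 0.0902). Cxcl3, a further Cxcr2 ligand, was at 0 to 0.831 CPM in medium and 0.492 to 11.3 CPM with TNF. LPS raised Ccl5 in adult microglia (log2 5.03) and in brain tissue (4.43), and Ccl7 in adult microglia (4.89). The edgeR adjusted p of these calls was at most 0.00193. Of all genes tested, 20.8% were called in either direction with TNF and 10.8% with GM-CSF. After LPS the share was 27.4% in adult microglia and 3.18% in brain tissue.

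Among genes of the inducing cytokines and their receptors some rose in each comparison, and 0 were called lower. With TNF 5 of 10 were called, all higher, led by Il1b (log2 3.70), Il1a (2.07) and Cd14 (1.72), and the list's median was 0.87. With GM-CSF 3 of 10 were higher, namely Il1b (1.49), Csf2rb (1.09) and Il1a (0.97), with a median of 0.31. In adult microglia LPS raised 5 of 10, led by Il1b (4.89), Tnf (4.18) and Csf2ra (1.52), and in brain tissue 6 of 8 tested, led by Csf2rb (1.89), Il1a (1.44) and Cd14 (1.23), with medians of 0.80 and 0.98. Medians over all genes tested lay between -0.039 and 0.012 in these 4 comparisons. Of all genes tested, 20.8% were called in either direction with TNF and 10.8% with GM-CSF. After LPS the share was 27.4% in adult microglia and 3.18% in brain tissue. In adult microglia Tnf was lowest in LPS replicate 2 (19.2 CPM) among the LPS libraries, the library that was also lowest in Ccl3, Ccl4 and Cxcl2.

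Genes of NF-kB feedback and of mRNA stability, a list that holds inhibitors of NF-kB such as Nfkbia as well as its cofactor Nfkbiz and RNA-binding proteins of either effect on mRNA, were called in opposite directions with the cytokines. TNF raised 3 of 8, namely Nfkbie (log2 2.35), Nfkbia (2.01) and Tnfaip3 (1.71), while GM-CSF lowered 3 of 8, namely Tnfaip3 (-0.75), Nfkbie (-0.74) and Zfp36 (-0.68), whose product promotes decay of AU-rich mRNA. LPS raised Nfkbiz (1.82), Zc3h12a (1.14) and Nfkbia (0.98) in adult microglia and Zc3h12a (1.11) and Nfkbiz (0.71) in brain tissue. Set against GM-CSF, TNF libraries were higher in 3 of 8. The medians of the list over medium, PBS or untreated controls were 0.24, -0.38, 0.53 and 0.41 in that order of comparisons. The edgeR adjusted p of these calls was at most 0.0162. Of all genes tested, 20.8% were called in either direction with TNF, 10.8% with GM-CSF and 16.2% between the cytokines. After LPS the share was 27.4% in adult microglia and 3.18% in brain tissue. Counts of 3 of 8 are too small to read against the shares in slices and adult microglia.

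Immediate early genes were called in both directions in slices. After LPS more were called higher than lower, but 5 of 11 in adult microglia and 8 of 10 in brain tissue were not called. With TNF 2 of 11 tested were higher and 4 lower, led by Fosb (log2 -2.19), Dusp1 (-1.45) and Ier3 (1.21), and with GM-CSF 1 was higher and 4 lower, led by Fos (-1.14), Ier3 (1.11) and Dusp1 (-1.10). In adult microglia 5 of 11 were higher and 1 lower, led by Hspa1b (3.405), Ier3 (3.27) and Hspa1a (3.24), and in brain tissue 2 of 10 were higher, Hspa1b (1.19) and Hspa1a (0.71). The list's medians were -0.56, -0.54, 0.74 and 0.33. Of all genes tested, 20.8%, 10.8%, 27.4% and 3.18% were called in either direction in these comparisons, in the same order. The part of handling in the levels of Ccl3 and Ccl4 was not tested.

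Ccl9 was the only member tested in all 3 tables, so likeness could be measured for it alone. Over 9700 genes tested throughout, the smallest root mean square differences from its log2 fold changes in the 4 treatments were those of Zfp334 (0.291), Epn2 (0.302) and Plxna1 (0.324). Plxna1, for instance, had log2 fold changes of 1.04 with TNF, 1.22 with GM-CSF, -1.18 with LPS in adult microglia and 0.05 with LPS in brain tissue.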

How the data were processed

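RNA sequencing was analysed from mouse slice microglia, adult microglia and brain tissue. Per the labels, the submitters' processing notes name STAR 2.7.0a, featureCounts of Subread 1.6.4 and mm10 for the slice samples, whose deposited values are whole-number counts per gene, not normalized. For adult microglia and brain tissue the authors deposited expected counts, estimated per gene and not normalized, which were rounded to whole numbers, and their aligner is not given in the sources used here, nor is the use of strand. The brain table has 92 rows that name no gene, which held 0% of counts and were left out.

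Genes were tested in R 4.3.3 with edgeR 4.0.16 (quasi-likelihood F test, TMM scaling, robust, minimum count 10 and total 15), with Benjamini-Hochberg adjustment per comparison and a fold limit of 1.5. The SE of a log2 fold change was taken from its F value. The 29 slice samples were fitted together, and adult microglia and brain tissue alone. Alternatives used DESeq2 1.42.0, limma 3.58.1, other scalings, filters, covariates and sample subsets. Members below the filter were tested by exact permutation in scipy 1.17.1. Fits were tested on simulated data. Floors and intervals cover counting error only, since reads carry no molecular identifiers.

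The members, lists and tests were chosen with earlier results of these data known. Each comparison names all 7 members, receptors of the list, of which 1 is not reported here, and from each other list up to 3 called genes of largest change, and S100a8, Mmp8, Cxcl3 in CPM and Tnf by library were singled out after their values were seen. Promoters are those of RefSeq, and lengths and coordinates those of GENCODE M21. Ccl4 and Cxcl5 promoters were not used here.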

Additional observations from a re-analysis of the deposited data

Results flagged for a closer look

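Ccl3 in PBS microglia was low in replicate 3, at 10.3 CPM, while the other 3 PBS libraries lay between 15.5 and 16.2 CPM, a gap of 0.877 of the group's range. This was the only such library among 26 groups of 4 to 10 samples checked. Chance alone gives such a library in about 1 in 20 groups, so 1 among 26 is near that rate. Without this library the log2 fold change of Ccl3 with LPS was 0.94 (edgeR adjusted p 0.137).

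The LPS effect on Ccl6 in adult microglia minus that in brain tissue was -1.03 on the log2 scale (edgeR interaction test, adjusted p 0.0143), and that on Ccl9 was -1.10 (0.0261). In brain tissue the libraries held 7 to 17 counts of Ccl6 and 6 to 27 of Ccl9, against 743 to 2431 and 696 to 2499 in adult microglia. Ccl6 was below the filter on low counts in brain tissue and entered the joint fit only through adult microglia, so its difference rests on those few brain counts.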

How the results depend on the processing

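Over all alternatives, 346 values of single members kept their direction and their side of the limits, 11 passed only in an alternative, 6 passed only as reported and 2 changed sign. The last were Ccl3 in TNF against GM-CSF, at -0.0833 with total counts and -0.108 in codes 2A and 2B alone, neither of them called. The number of members called with TNF against medium was 4 with the adjusted p alone, through Ccl3 and Ccl6. Without the low-count filter Cxcl1 was called as well in TNF against medium, in TNF against GM-CSF (3 members each) and in brain tissue (1 member), as was Cxcl2 in adult microglia (3 members). The difference of LPS effects gave 1 under limma-voom. With 1 library left out, the members called ranged from 2 to 4 in adult microglia, from 0 to 0 in brain tissue and from 1 to 2 for the difference of LPS effects. With code means subtracted, the correlations of immediate early genes with Ccl3 and Ccl4 in medium became -0.26 and -0.0214, and that with Ccl4 in TNF -0.00761. Per kb of the longest transcript Ccl6 was 2080 CPM with GM-CSF, 118 in PBS and 41.9 in LPS microglia. The causes were not tested.

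Same-numbered samples deviated from their group means with correlations of -0.0592 to 0.211 in slices (12 of 27 pairs over 0.1), while the adult microglia gave -0.0639 to 0.0368 and the brain tissue -0.0811 to 0.0377. A sample correlated best with its own number in 7 of 27, 1 of 4 and 1 of 4 pairs, so the numbers were not taken to pair the samples, although many same-numbered slice samples also carry the same title code. With a replicate block, Ccl6 was called with TNF (log2 0.60, edgeR adjusted p 0.000376) and Cxcl2 with GM-CSF (0.74, 0.0158), and the block changed no other call. With total counts, the calls over all genes shifted to 881 higher and 1560 lower with TNF (1030 and 1323 with TMM) and to 814 and 460 with GM-CSF (548 and 674), and in TNF against GM-CSF to 694 and 1514 (933 and 900), which kept the members' calls. Counts under about 10 per library limit the brain tissue values.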
